A study of Homo sapiens with 12 samples.

Results

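A set of 10 matrix protease and inhibitor genes was followed in proliferating (Pro) and senescent (Sen) cells of IMR90, a primary line of normal fibroblasts from human fetal lung. They were chosen by symbol, as 10 of the 38716 symbols in the tables, of which 17361 had at least 1 mRNA or coding read. Of the 10 genes, 5 encode matrix metalloproteinases (MMP1, MMP2, MMP3, MMP10, MMP14), 3 their tissue inhibitors (TIMP1, TIMP2, TIMP3) and 2 related adamalysin-type genes (ADAMTS1, ADAM12). All cells were grown in minimal essential medium with serum and non-essential amino acids. Sen cells had been passaged until replicative senescence and Pro cells were still dividing. From each of 3 lysates per state, 1 RNA-seq library of poly(A)-enriched RNA and 1 Ribo-seq library of ribosome-protected fragments (RPF) were made, 12 libraries in 4 groups. The labels name 2 isolates of the line without tying them to samples, and the names of the Pro RNA-seq tables hold letters close to those of DMSO, a solvent. State therefore cannot be told apart from isolate or from such a treatment. Per the labels, the 3 replicates of a state were grown independently.

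MMPs are zinc-dependent proteases, made as inactive proenzymes, that cut collagens and other proteins outside the cell or at its surface. TIMPs block them by binding the active site, and TIMP2 also takes part, together with MMP14, in activating the proenzyme of MMP2 at the cell surface. Fibroblasts are a main source of these proteins in connective tissue, and several of them belong to the secretory programme of senescent cells, the SASP.

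The catalytic zinc of metalloproteinases is held by a short motif rich in histidines. Reading the coding sequences of the GENCODE annotation lifted to GRCh37 by codons, the residue pattern HExxHxxGxxH was found once in each of the 5 MMPs and in ADAM12, and 0 times in TIMP1, TIMP2, TIMP3 and ADAMTS1. The search required the Gly of this pattern, so a zinc site without it would be missed. The 0 of ADAMTS1, a protease, therefore does not mean that it lacks a zinc site. The first 30 bases of each site are shown 5′ to 3′ to display how far the 6 genes differ where they share this motif. Capitals mark the codons of the fixed His, Glu, His and Gly residues.
MMP1: CATGAActcggcCATtctcttGGActctcc
MMP2: CACGAGtttggcCACgccatgGGGctggag
MMP3: CATGAAattggcCACtccctgGGTctcttt
MMP10: CATGAActtggcCACtccctgGGGctcttt
MMP14: CACGAGctgggcCATgccctgGGGctcgag
ADAM12: CATGAGctgggcCACaatttcGGGatgaat
These windows lie in exon 5 of MMP1 (chr11:102666283-102666312, minus strand), exon 8 of MMP2 (chr16:55525739-55525768, plus strand) and exon 5 of MMP3 (chr11:102711269-102711298, minus strand). The others lie in exon 5 of MMP10 (chr11:102647452-102647481, minus strand), exon 5 of MMP14 (chr14:23312492-23312521, plus strand) and exon 11 of ADAM12 (chr10:127782631-127782660, minus strand), all in GRCh37. MMP3 and MMP10 differed at 2 of these 30 bases, MMP14 and MMP2 at 5, and MMP1 and MMP2 at 14.

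The likeness of MMP3 and MMP10, both stromelysins, bears on how their reads can be counted. Their coding sequences share 129 windows of 30 bases, which is 9.18% of the windows of MMP3 and 9.20% of those of MMP10, and no other pair of the 10 genes shares any. The longest shared run is 96 bases, and its middle 30 bases are printed as a stretch from which a footprint cannot be assigned to either gene.
MMP3 and MMP10: ctccactcacattctccaggctgtatgaag
This stretch lies in exon 3 of MMP3 (chr11:102713198-102713227) and in exon 3 of MMP10 (chr11:102649980-102650009), both on the minus strand of GRCh37. The tables hold fractional counts for both genes, and their values are uncertain to that extent. MMP10, MMP1 and MMP3 lie next to each other within 73108 bases of chromosome 11, inside a cluster of 9 MMP genes that spans 435223 bases. MMP1 and MMP3 also overlap the pseudogene WTAPP1 on the other strand, over 223 and 32 exonic bases. TIMP2 overlaps a long non-coding RNA on the other strand over 367 exonic bases and CEP295NL on its own strand over 224. MMP2 overlaps ENSG00000279030, an unconfirmed transcript model on its own strand, over 174 exonic bases. The strand rule of the counting is not given in the sources used here, so reads from such overlaps cannot be told apart.

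RNA-seq depth ranged from 7902427 to 14144455 reads over UTRs and CDS. The Ribo-seq libraries held 54421 (Pro 1), 685061 (Pro 2), 1718521 (Pro 3), 1672807 (Sen 1), 54708 (Sen 2) and 583798 (Sen 3) coding (CDS) reads, and Pro 1 and Sen 2 are called shallow below. In these a floor of 3 reads equalled 49.8 and 51.4 CPM (reads scaled to the depth of the library, the edgeR unit), against 1.72 to 5.69 CPM in the other Ribo-seq libraries and 0.220 to 0.366 CPM in RNA-seq. Floors and intervals account for counting error alone, because PCR copies of a molecule are not independent. Fibroblast markers such as COL1A1 were abundant (11531 to 14978 CPM of mRNA), and of 9 such markers 4 were called higher and 3 lower in Sen. In contrast, the epithelial genes EPCAM and CDH1 stayed at or under 1.03 CPM and the endothelial genes PECAM1, CDH5, VWF and KDR at or under 0.744. The leukocyte genes ITGAM and CD3E had 0 reads and PTPRC stayed at or under 0.171 CPM. The summed mRNA level of the 6 endothelial genes was 54.4 to 62.0 CPM in Pro and 93.9 to 105.5 in Sen, nearly all of it from TEK. For the 6 leukocyte genes the sum was 19.3 to 21.5 CPM in Pro and 32.1 to 35.5 in Sen, nearly all of it from CD68. For the 7 epithelial genes it was 306 to 329 CPM in Pro and 239 to 262 in Sen, mostly from KRT18. The state labels were checked on 6 genes, all called in mRNA, 3 higher and 3 lower. Among them was LMNB1, a nuclear lamina gene lost in senescence, whose mRNA fell from 64.0 ± 5.35 to 8.99 ± 1.13 CPM (SD, n = 3). CDKN1A, which encodes a cell cycle inhibitor, rose from 503.8 ± 11.9 to 1532 ± 61.5 CPM.

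Senescent cells held more message for the inhibitors TIMP3 and TIMP2, for MMP14 and for the stromelysins MMP3 and MMP10, and less for the gelatinase MMP2. The 10 genes together took 0.558% ± 0.0107 of mRNA reads in Pro and 0.742% ± 0.00835 in Sen (SD, n = 3). TIMP3 had by far the largest gain in CPM, from 875 ± 27.6 to 3250 ± 52.3, while MMP2, TIMP1 and ADAMTS1 fell. The summed share therefore does not describe the genes as a set. Of the 10 genes, 9 were called changed in mRNA at an adjusted p under 0.15 (edgeR's quasi-likelihood test), 6 higher and 3 lower in Sen. Of the 12790 genes tested, 73.6% were called, 36.6% higher and 37.0% lower. The Pro and Sen libraries were fully separated for 8 of the 10, against 67.8% of all genes tested. MMP3 and MMP10, counted among the 6 higher and the 8 separated, passed the filter through their Sen libraries alone. Their calls are therefore a description and no test of them. The shares called and separated are near the background. The sizes of the changes differ widely between the genes, also within a role, and are given below gene by gene. The median log2 fold change was 0.27 over the 10 genes and -0.0059 over all genes tested. In bulk libraries, a change in the share of cells that express a gene and a change in the RNA per cell cannot be told apart.

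**Figure D1:**
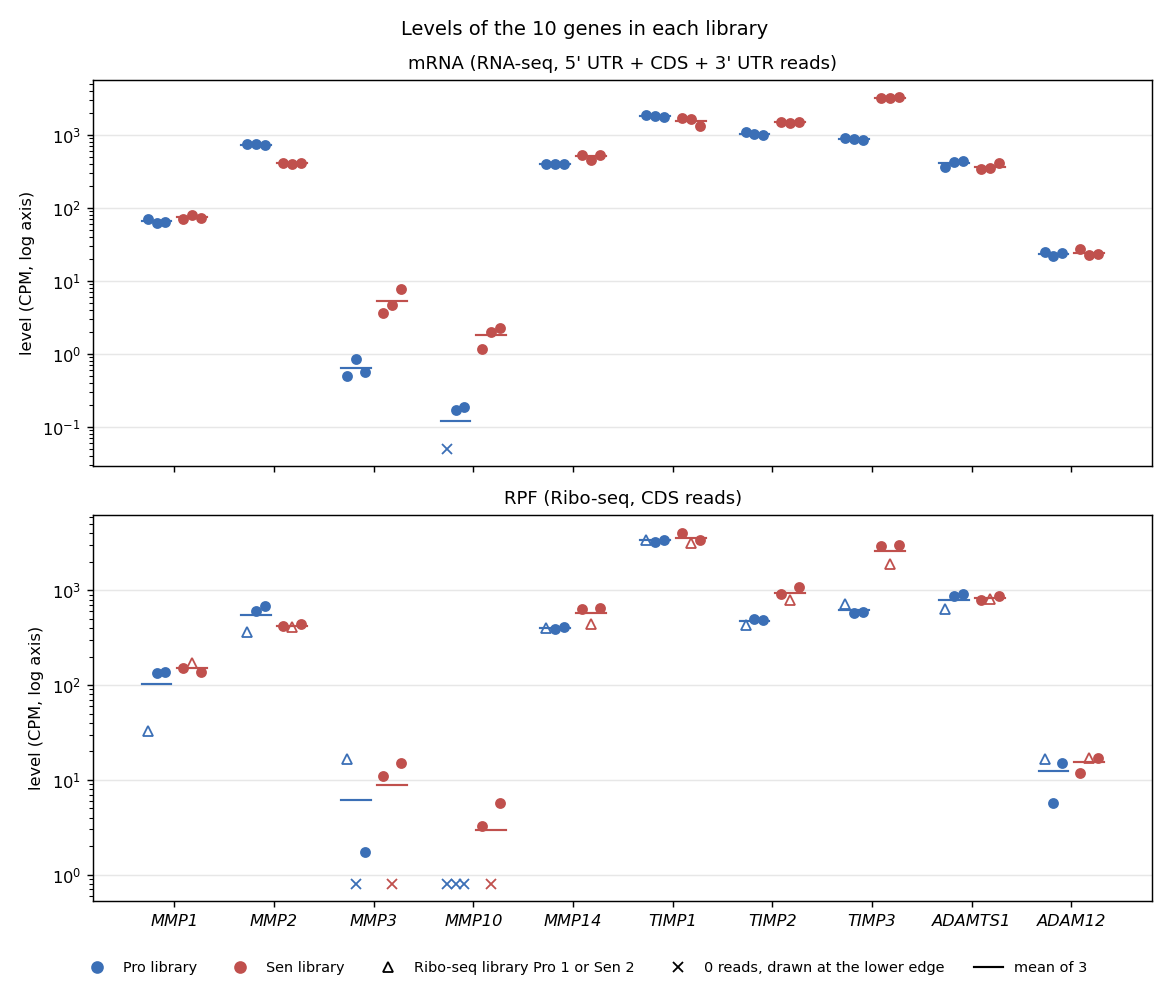
Level of each of the 10 genes in every library, in CPM on a log axis, for mRNA (top) and RPF (bottom), with Pro in blue, Sen in red and a line at the mean of 3. In mRNA the TIMP3 points of Sen sit between 3192 and 3292 CPM and those of Pro between 849.9 and 905, and in RPF the shallow libraries (open triangles) stand apart for MMP1 (Pro 1, 33.2 CPM) and TIMP3 (Sen 2, 1883 CPM).

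MMP1 (GRCh37 chr11:102660132-102668891, minus strand) encodes the interstitial collagenase, which cuts fibrillar collagen. Its mRNA stood at 69.8, 61.2 and 64.9 CPM in Pro 1, 2 and 3 and at 70.2, 79.5 and 72.0 CPM in Sen 1, 2 and 3. All Sen libraries lay above all Pro libraries, narrowly in the case of Sen 1 and Pro 1. The log2 fold change was 0.18 ± 0.078 (SE, adjusted p = 0.0439). That call was lost without Pro 2 (log2 fold change 0.13, adjusted p = 0.232), without Sen 2 (0.12, adjusted p = 0.176) and on library totals (0.08, adjusted p = 0.393). Its RPF level was 33.2, 133 and 139 CPM in Pro and 151, 171 and 139 CPM in Sen. The lowest value rests on 2 reads in the shallow Pro 1, and the other libraries overlapped. The RPF change was 0.16 ± 0.18 (adjusted p = 0.483). Reads pooled over the 3 libraries of a state gave a Sen to Pro ratio of 1.10 with a counting interval of 0.940 to 1.29 at 95%.

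MMP2 (chr16:55423612-55540603, plus strand), a gelatinase that also cuts type IV collagen, had the highest mRNA level per kilobase of the MMPs in Pro (269 CPM of CDS reads per kilobase in RNA-seq) and fell in Sen (151). Its mRNA was 745, 749.5 and 725 CPM in Pro and 416, 394 and 418 CPM in Sen. The groups were far apart, with a spread of at most 13.1 CPM (SD) within each. On the log2 scale mRNA fell by 0.85 ± 0.069 (SE, adjusted p = 4.48e-10), a 1.81-fold lower level. RPF was 365, 608 and 692 CPM in Pro and 418, 411 and 438 CPM in Sen. Here the shallow Pro 1, with 21.5 reads, lay below all Sen libraries while Pro 2 and Pro 3 lay above them. RPF fell by 0.53 ± 0.16 on the log2 scale (adjusted p = 0.00687), a call that was lost without Pro 3 (-0.33, adjusted p = 0.333) and in DESeq2 (-0.50, adjusted p = 0.175).

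MMP3 (chr11:102706532-102714340) and MMP10 (chr11:102641233-102651359), the stromelysins on the minus strand, have broad substrates and can activate other proenzymes. They were the least abundant of the MMPs per kilobase and had the highest fold changes. MMP3 had 4, 9.5 and 5.5 mRNA reads in Pro and 34, 62.5 and 85 in Sen. That is 0.488 to 0.854 CPM against 3.61 to 7.76 CPM, and the groups did not overlap. Its log2 fold change was 3.02 ± 0.34 (adjusted p = 6.93e-08). MMP10 had 0, 1.5 and 1.5 mRNA reads in Pro and 11, 26.5 and 25 in Sen. Its pooled reads gave a Sen to Pro ratio of 18.8 with a counting interval of 6.19 to 94.3, and the test an adjusted p of 1.23e-06. Log2 fold changes above 3 were found for 0.954% of the genes tested in mRNA, and MMP3 and MMP10 are 2 of them. Both passed the filter through their Sen libraries alone, so this share and their adjusted p-values are a description and no test of them. Under the filter of 10 counts in every library neither was tested. There 7 of the 8 members left were called, as were 8737 of 11944 genes. With the reads of the pair summed into 1 feature, which does not depend on how shared reads were split, the log2 fold change was 3.18 ± 0.31 (adjusted p = 9.82e-09). The sum holds the same reads, so its adjusted p is a description too.

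Footprints on the stromelysins were too few to pass the filter of the main RPF test. MMP3 had 1, 0 and 3 CDS reads in Pro and 16.5, 0 and 8 in Sen, and the 0 of Sen 2 came from a shallow library. Pooled over libraries the Sen to Pro ratio was 7.20, with a counting interval of 2.54 to 29.1. MMP10 had 0 CDS reads in all Pro libraries and 4.5, 0 and 3 in Sen. Its pooled Sen level was 2.94 times a floor of 3 counts over the Pro group. That value takes the Sen reads without their counting error and is not a lower limit. Both ratios compare pooled libraries, and the interval of MMP3 covers counting error only. With a filter of 1 read, which lets both genes into the RPF test, MMP3 had a log2 fold change of 2.74 ± 0.69 (adjusted p = 7.78e-04) and MMP10 an adjusted p of 0.00460. In that fit 6 of the 10 genes were called, as were 4733 of all 13932 genes tested. As all Pro libraries of MMP10 were at 0, it entered this fit through its Sen reads alone, and its p-value is a description. The fitted change of MMP10 depends on the prior count and is not given. Without the shallow lysates MMP3 passed the main filter, with a change of 3.19 ± 0.65 (adjusted p = 3.71e-04). It passed through its Sen libraries, with 16.5 and 8 CDS reads against 0 and 3 in Pro. This p-value is therefore a description and no test of MMP3. In that fit 5 of the 9 members tested were called, MMP3 among them, as were 4958 of all 9232 genes tested.

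The other genes of the chromosome 11 cluster were near or at 0. MMP7, MMP13 and MMP27 had 0 mRNA reads in every library, and MMP20 had 1 read in all. MMP8, a collagenase of neutrophils, had 0 reads in each Pro library and 1 in each Sen library. MMP12, the macrophage elastase, had 0, 1 and 1 reads in Pro and 0, 4 and 3 in Sen. None of these 6 neighbours was tested.

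MMP14 (chr14:23305769-23318250, plus strand), the membrane-type MMP that activates MMP2, rose in both measures. Its mRNA was 402, 397 and 399 CPM in Pro and 531, 461 and 535 CPM in Sen. Pro libraries agreed within 2.12 CPM (SD), and the Sen libraries, all above them, had an SD of 41.5 CPM. The log2 fold change was 0.35 ± 0.073 (adjusted p = 2.61e-04). RPF was 398, 395 and 416 CPM in Pro and 629, 445 and 649 CPM in Sen, again without overlap, with the shallow Sen 2 lowest. The RPF change was 0.59 ± 0.16 (adjusted p = 0.00215). Thus MMP14 and MMP2, the partners of the activation step, moved in opposite directions in mRNA and in RPF.

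TIMP1 (chrX:47441807-47446188, plus strand), a secreted inhibitor of most MMPs, had the highest RPF level per kilobase of the 10 genes in both states. Its mRNA was 1877, 1804 and 1775 CPM in Pro and 1699, 1667 and 1331 CPM in Sen. The Sen libraries all lay below the Pro libraries, and Sen 3 lay well below the other Sen libraries. The mRNA fell by 0.22 ± 0.085 on the log2 scale (adjusted p = 0.0303), by 0.12 without Sen 3 (adjusted p = 0.143), and by 0.15 without a call on CDS reads alone (adjusted p = 0.221). RPF of TIMP1 was 3437, 3246 and 3437 CPM in Pro and 4072, 3150 and 3425 CPM in Sen. The groups overlapped, and the RPF change was 0.08 ± 0.18 (adjusted p = 0.725).

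TIMP2 (chr17:76849059-76921469, minus strand) rose in mRNA and RPF. Its mRNA was 1099.5, 1045 and 989 CPM in Pro and 1516, 1448 and 1516 CPM in Sen. The lowest Sen library was above the highest Pro library, and the log2 fold change was 0.52 ± 0.072 (adjusted p = 1.82e-06). RPF was 432, 502 and 488 CPM in Pro and 923, 787 and 1089 CPM in Sen. The change in RPF was 0.98 ± 0.16 (adjusted p = 1.95e-06), a 1.97-fold higher level.

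TIMP3 (chr22:33197691-33259028, plus strand), which binds to the extracellular matrix and inhibits ADAM and ADAMTS proteases beside MMPs, had the highest fold changes of the set after the scarce stromelysins in mRNA, and of all 7 genes tested in RPF. Its mRNA was 905, 871 and 849.9 CPM in Pro and 3267, 3192 and 3292 CPM in Sen. Replicates differed by an SD of 27.6 CPM in Pro and 52.3 CPM in Sen. The log2 fold change was 1.89 ± 0.073 (adjusted p = 2.07e-15), 3.71-fold, higher than the change of 97.6% of the genes tested. RPF was 714, 573 and 593 CPM in Pro and 2969, 1883 and 2998 CPM in Sen. Every Sen library exceeded every Pro library, and the shallow Sen 2 was lowest of the Sen libraries. The RPF change was 2.16 ± 0.19 (adjusted p = 1.14e-14), 4.46-fold, higher than that of 99.1% of the genes tested.

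ADAMTS1 (chr21:28208074-28217728, minus strand), a secreted protease that cuts proteoglycans such as versican, showed a small mRNA change. Its mRNA was 368, 429 and 446 CPM in Pro and 338, 349 and 414 CPM in Sen, and the groups overlapped. It fell by 0.18 ± 0.086 on the log2 scale (adjusted p = 0.0748). Without Pro 2 it fell by 0.15 (adjusted p = 0.211), without Pro 3 by 0.12 (adjusted p = 0.265), without Sen 1 by 0.12 (adjusted p = 0.295) and without Sen 2 by 0.15 (adjusted p = 0.177), so the call was lost in 4 of the 6 fits that leave out 1 library. It was kept without Pro 1 (fell by 0.26, adjusted p = 0.0171) and without Sen 3 (fell by 0.28, adjusted p = 0.00329). RPF was 631, 864 and 906 CPM in Pro and 789, 805 and 882 CPM in Sen, with a change of -0.03 ± 0.16 (adjusted p = 0.898).

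ADAM12 (chr10:127700950-128077046, minus strand), a membrane-bound or secreted metalloproteinase with a disintegrin domain, was the gene not called in mRNA. Its mRNA was 24.8, 22.0 and 23.8 CPM in Pro and 27.0, 22.6 and 23.4 CPM in Sen, with overlapping groups. The log2 fold change was 0.05 ± 0.099 (adjusted p = 0.700). CDS reads in Ribo-seq were 1, 4 and 26 in Pro and 18, 1 and 9 in Sen, too few for the main RPF test, and their pooled ratio was 1.06 with a counting interval of 0.614 to 1.83. With the filter of 1 read the RPF change was 0.10 ± 0.44 (adjusted p = 0.896).

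In the main RPF test 7 of the 10 genes had enough reads, and 4 of them were called (TIMP3, TIMP2 and MMP14 higher, MMP2 lower), against 54.3% of the 7562 genes tested (27.7% higher, 26.6% lower). Full separation of Pro and Sen libraries was found for 3 of the 7, against 32.7% of all genes tested. These 4 of the 7 genes were called in both mRNA and RPF with the same sign, as were 45.3% of the 7512 genes in both tests. MMP1, TIMP1 and ADAMTS1 were called in mRNA and not in RPF, a combination found for 29.7% of those genes. The SE of the 7 genes was 0.16 to 0.19 in RPF, and 0.069 to 0.086 for the same genes in mRNA. The summed reads of the 10 genes made up 0.663% ± 0.0159 of CDS reads in Pro Ribo-seq libraries and 0.869% ± 0.0499 in Sen. TIMP3 had the largest gain among them, from 627 ± 76.1 to 2617 ± 636 CPM, while MMP2 fell.

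**Figure D2:**
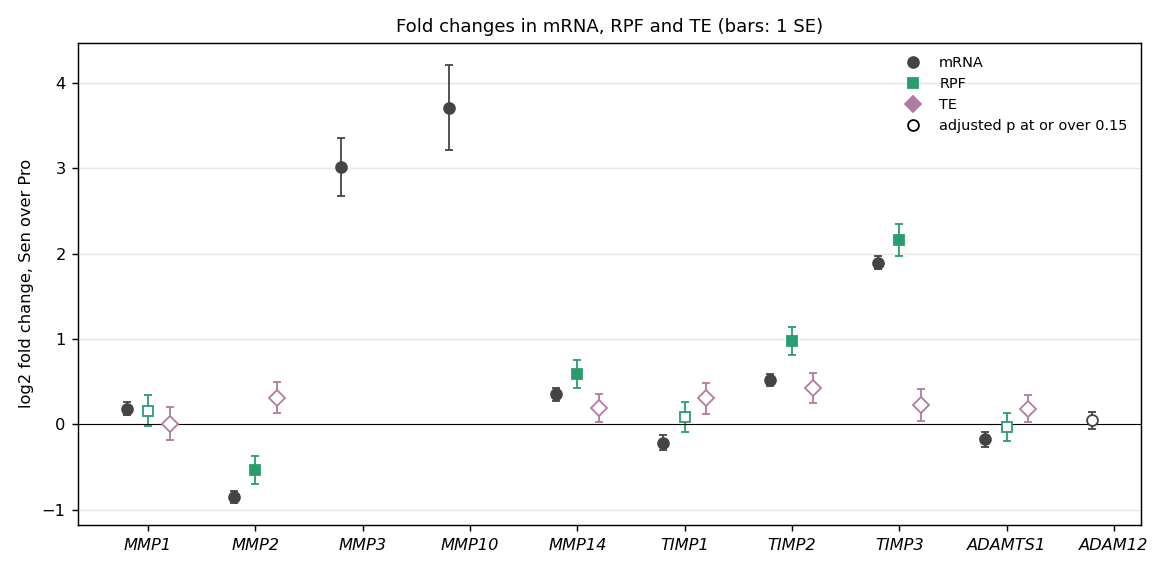
Log2 fold change of Sen over Pro for each gene in mRNA (circles), RPF (squares) and translational efficiency (TE, diamonds), with bars of 1 SE, filled where the adjusted p was under 0.15. RPF and TE are missing for MMP3, MMP10 and ADAM12, and the TE points lie between 0.0062 and 0.42 with none filled.

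Translational efficiency (TE) is the RPF level of a gene relative to its mRNA, compared here as the log2 ratio in each lysate and tested as the interaction of library type with state. None of the 7 genes tested was called by edgeR's quasi-likelihood test, where 9.41% of 7512 genes were. At an unadjusted p under 0.05 there was 1, TIMP2. The share of all genes under that cut was not computed, so this count has no background. DESeq2 and limma-voom called 0 of the 7 genes, and 26 and 43 of all 7512 genes tested. All 7 fold changes were above 0 with TMM factors, as were those of 49.6% of all genes tested, though that of MMP1 was -0.024 with RLE factors and -0.028 on library totals. Their median was 0.23. TIMP2 had TE values of -1.32, -1.06 and -1.02 in Pro and -0.72, -0.86 and -0.48 in Sen. The groups did not overlap, and the change was 0.42 ± 0.18 (adjusted p = 0.185). Adjusted p of TIMP2 ranged from 0.0595 to 0.9996 over the alternatives tried.

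TE of TIMP1 was 0.88, 0.85 and 0.95 in Pro and 1.26, 0.92 and 1.36 in Sen, and only the shallow Sen 2 fell within the Pro range. Its change was 0.30 ± 0.18 (adjusted p = 0.367). TE of TIMP3 was -0.33, -0.60 and -0.52 in Pro and -0.14, -0.75 and -0.13 in Sen. Here the shallow Pro 1 was the highest Pro lysate and the shallow Sen 2 the lowest of all, and the change was 0.23 ± 0.19 (adjusted p = 0.554). Without both shallow lysates the 3 inhibitors were called, TIMP1 at 0.40 (adjusted p = 0.0555), TIMP2 at 0.42 (adjusted p = 0.0595) and TIMP3 at 0.41 (adjusted p = 0.0548). In that fit 1212 of all 9169 genes tested were called. Without Sen 2 alone, TIMP1 (0.43, adjusted p = 0.136) and TIMP2 (0.48, adjusted p = 0.0997) were called, as were 751 of all 8117 genes tested. The TE result for the inhibitors therefore depends on libraries that hold few reads of them, such as 46 CDS reads of TIMP2 in Sen 2 against 1419.5 in Sen 1.

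Among the proteases, TE of MMP2 was -0.996, -0.30 and -0.068 in Pro and 0.0088, 0.089 and 0.073 in Sen. All Sen lysates lay above all Pro lysates, the lowest being the shallow Pro 1, and the change was 0.31 ± 0.18 (adjusted p = 0.344). The changes of MMP14 (0.19 ± 0.17, adjusted p = 0.558), ADAMTS1 (0.18 ± 0.16, adjusted p = 0.572) and MMP1 (0.0062 ± 0.20, adjusted p = 0.990) were not called either. Full separation of Pro and Sen lysates was found for 3 of the 7 genes (MMP2, TIMP2, ADAMTS1), against 16.2% of all genes tested.

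**Figure D3:**
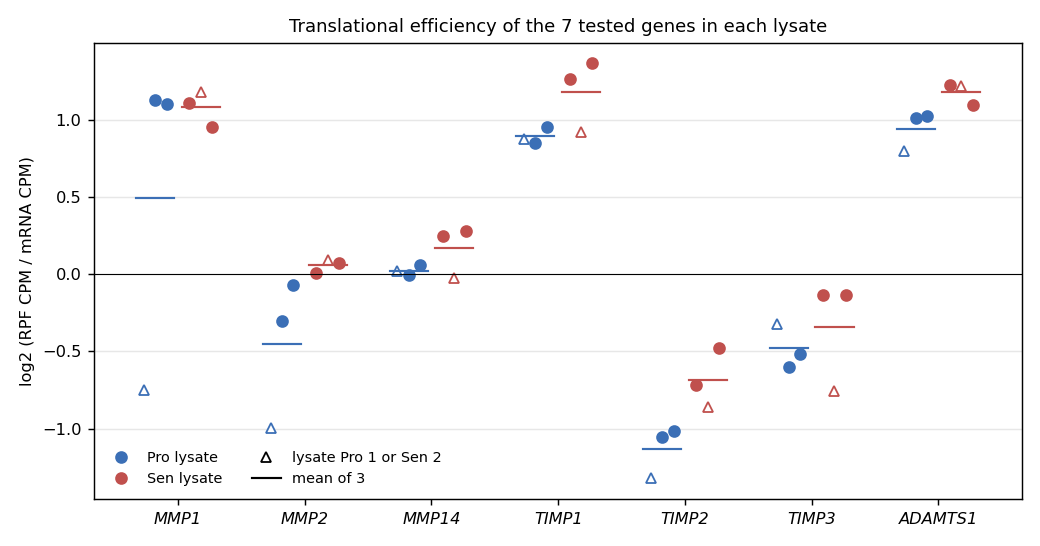
TE of the 7 tested genes in each lysate, as log2 of RPF over mRNA (both in CPM, 0.5 added to each count), with Pro in blue, Sen in red, open triangles for the shallow lysates Pro 1 and Sen 2 and lines at the mean of 3. The Sen lysates of TIMP2 lie between -0.86 and -0.48, above the Pro lysates at -1.32 to -1.02, and MMP1 in Pro 1 (-0.75) rests on 2 footprints.

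Levels of different genes were compared per kilobase of coding sequence, in CPM of CDS reads per kilobase. By RPF in Pro the order was TIMP1 (5432 ± 177), TIMP3 (990.1 ± 120.2), TIMP2 (718 ± 56.4), MMP2 (279 ± 87.9), ADAMTS1 (276 ± 51.0), MMP14 (229 ± 7.77) and MMP1 (72.3 ± 42.3), with ADAM12, MMP3 and MMP10 at or under 4.57 (SD, n = 3). Of these, MMP2, ADAMTS1 and MMP14 overlapped, while the steps between the TIMPs and down to MMP2 and to MMP1 did not. In Sen the order was TIMP1 (5715 ± 762), TIMP3 (4134 ± 1004), TIMP2 (1413 ± 228), MMP14 (329 ± 64.5), ADAMTS1 (283 ± 17.8), MMP2 (213 ± 6.94) and MMP1 (109 ± 11.7). The other genes were at or under 6.03. MMP14 and ADAMTS1 overlapped in Sen, and the range of MMP2 (207.5 to 221) lay below those of both.

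The makeup of the inhibitors shifted from TIMP1 toward TIMP3. Of the summed RPF level of the 3 TIMPs per kilobase, TIMP3 made up 15.4%, 13.1% and 13.0% in Pro and 37.1%, 32.2% and 39.8% in Sen. TIMP1 made up 75.6%, 75.8% and 76.8% in Pro and 51.9%, 54.9% and 46.4% in Sen. Neither share overlapped between states, and RNA-seq CDS reads gave the same order, with TIMP3 at 10.0% ± 1.06 in Pro and 27.7% ± 3.46 in Sen. These shares are a description of values already compared above and carry no test.

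Among the 5 MMPs, MMP2 made up 46.9% ± 5.16 of the summed RPF level in Pro and 32.5% ± 2.64 in Sen, without overlap. MMP14 made up 50.9%, 36.0% and 34.6% in Pro and 52.4%, 43.6% and 52.7% in Sen, and the groups overlapped, with a high value in the shallow Pro 1. MMP3 and MMP10 together stayed at or under 2.64% in every library. The summed TIMP level rose from 7140 ± 219.5 to 11262 ± 1790 CPM per kilobase in RPF, with no overlap. The summed MMP level in RPF was 584 ± 129.6 in Pro and 659 ± 65.9 in Sen, with overlap. Its lowest value, 439, was in the shallow Pro 1, against 627 in Pro 2 and 687.5 in Pro 3. By RNA-seq CDS reads the summed MMP level was lower in Sen, at 428 ± 13.8 in Pro and 350 ± 17.4 in Sen, without overlap. The summed TIMP level there was 2745 ± 242 in Pro and 3316 ± 212 in Sen, also without overlap.

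The ratio of summed TIMP to summed MMP level was 16.7, 10.99 and 10.49 in Pro and 18.4, 15.8 and 16.9 in Sen by RPF. The shallow Pro 1 lay within the range of Sen, and the difference of the mean log2 ratios was 0.45, with an SD of 0.37 in Pro and 0.11 in Sen. By RNA-seq CDS reads the ratio was 6.73, 6.495 and 6.01 in Pro and 9.88, 9.97 and 8.60 in Sen, without overlap, a log2 difference of 0.56. Without both shallow lysates, an alternative added after the data had been seen, the RPF difference was 0.71.

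**Figure D4:**
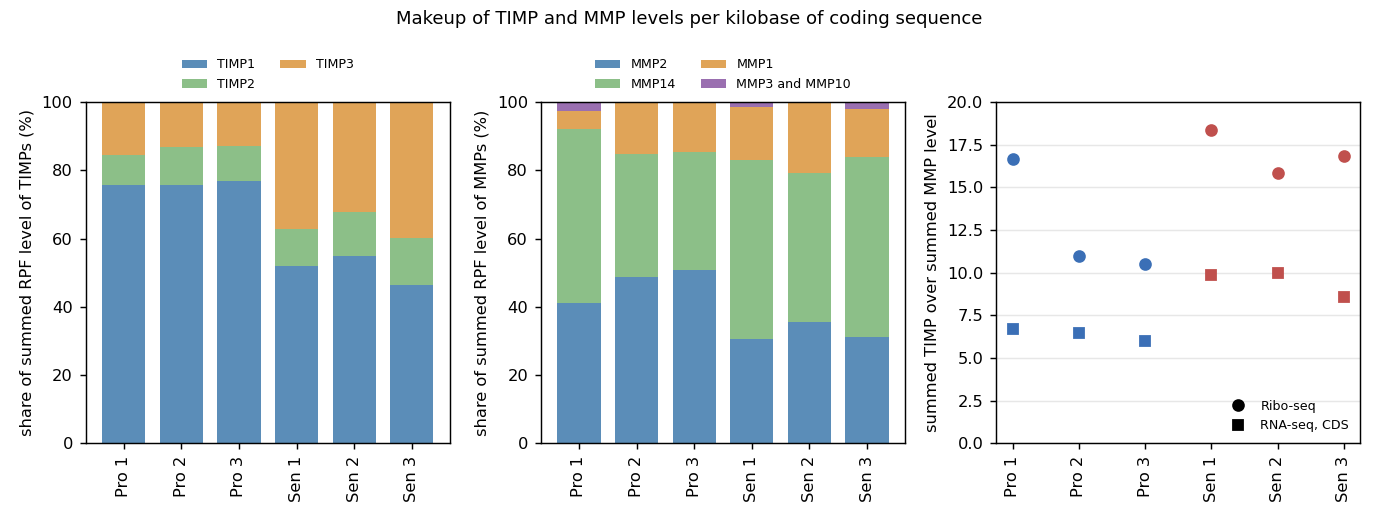
Share of each gene in the summed RPF level of the TIMPs (left) and MMPs (middle), in percent of the CPM per kilobase, and ratio of the summed TIMP to the summed MMP level (right), for the 6 lysates, Pro in blue and Sen in red in the right panel. TIMP3 holds 13.0% to 15.4% of the TIMP level in Pro and 32.2% to 39.8% in Sen, and the ratio by RNA-seq is 6.01 to 6.73 in Pro and 8.60 to 9.97 in Sen.

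The place of the reads along each mRNA was compared as the share in the UTRs. In RNA-seq, 3′ UTR reads made up most of the reads of TIMP2 (75.2% ± 0.588 in Pro, 74.5% ± 1.63 in Sen) and TIMP3 (73.7% ± 2.33 in Pro, 75.0% ± 2.83 in Sen). Nearly none of TIMP1 lay there (0.0753% ± 0.0148 in Pro, 0.0503% ± 0.0136 in Sen). Of the 8 genes with at least 20 reads in every library, 0 had 3′ UTR shares without overlap between the states, against 12.7% of all genes with enough reads, and 0 had such 5′ UTR shares, against 9.47%. In the 3′ UTR the exact two-sided permutation p-values ran from 0.2 to 0.8, and 3 libraries against 3 cannot go below 0.1. Without Sen 2, 4 of the 8 genes had 3′ UTR shares without overlap, and without Pro 2 it was 1. The share of all genes was not computed for 3 libraries against 2, so these counts have no background. Summed over all genes, the 3′ UTR share was 24.7% to 25.1% in Pro and 26.8% to 28.9% in Sen.

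In Ribo-seq, 6 of the 10 genes had at least 20 reads in every library. For 3 of these 6 the share of reads in the 5′ UTR was higher in every Pro library than in every Sen library, against 19.8% of the 424 genes with enough reads. For TIMP3 it was 8%, 5.83% and 3.87% in Pro and 2.01%, 0.654% and 0.550% in Sen. For MMP14 it was 7.84%, 3.79% and 2.56% in Pro and 1.71%, 0% and 0.856% in Sen, where the 0 of 29 reads in Sen 2 allows a share of up to 10.3%. For ADAMTS1 it was 2.56%, 2.39% and 2.65% in Pro and 1.29%, 0% and 0.848% in Sen, where the 0 of 47.5 reads in Sen 2 allows up to 6.32%. Without the shallow lysates the 3 genes kept this order in the values just given. Each had an exact two-sided permutation p of 0.1, the smallest this design allows. The counts behind these shares are small, with 42 reads of TIMP3 in the 5′ UTR in Pro 3, 95 in Sen 1 and 1 in the shallow Sen 2. Summed over all genes the share went the other way in part, at 10.2%, 3.70% and 2.78% in Pro and 4.89%, 44.7% and 13.8% in Sen.

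Reads in the 3′ UTR of Ribo-seq libraries were frequent in Sen 2. TIMP2 had 57 of them beside 46 CDS reads there, a share of 55.3%, against 6.73% in Sen 1 and 10.2% in Sen 3. Its Pro libraries had 20%, 2.997% and 3.08%, with the high value again in a shallow library. For TIMP3 the share was 27.5% in Sen 2, 1.52% in Sen 1 and 2.87% in Sen 3. The groups overlapped for all 6 genes with enough reads, and 8.96% of all 424 genes did not overlap. Over all genes Sen 2 had 14.8% and Pro 1 12.4% of reads in 3′ UTRs, against 1.40% to 4.90% in the other libraries. Whether such reads also lie within the CDS counts of these libraries was not tested.

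Further genes of the same biology were read from 7 lists, with at most 4 genes named from each. Among the 18 other MMPs, 8 were tested in mRNA and 6 were called, 4 higher and 2 lower, a share near the 73.6% of all genes called. MMP24, another membrane-type MMP, rose from 26.2 ± 3.71 to 60.9 ± 5.90 CPM (log2 fold change 1.222, adjusted p = 5.32e-10), and MMP15, also of the membrane type, from 3.35 ± 0.681 to 7.09 ± 0.639 CPM (1.04, adjusted p = 1.86e-05). MMP17 fell by 0.51 on the log2 scale (adjusted p = 0.00507) and MMP23B fell by 1.181 (adjusted p = 3.76e-04), the latter a gene with a near-identical copy that can share its reads. In RPF, 2 were tested and 1, MMP24, was called (0.9955 ± 0.44, adjusted p = 0.0638).

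All 3 other MMP inhibitors tested in mRNA were called higher. RECK, a membrane-anchored inhibitor of MMPs, rose from 99.4 ± 3.88 to 209.6 ± 2.22 CPM (log2 fold change 1.08, adjusted p = 1.10e-11). A2M, which encodes a protease-trapping macroglobulin, rose from 4.12 ± 0.821 to 22.7 ± 0.859 CPM (2.43, adjusted p = 1.07e-12). In RPF the changes were 0.93 ± 0.18 for RECK (adjusted p = 3.12e-05) and 2.61 ± 0.39 for A2M (adjusted p = 1.34e-07). These counts stand beside the 36.6% of genes called higher in mRNA and 27.7% in RPF.

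Of 26 other ADAMTS and ADAMTS-like symbols, 19 were tested in mRNA and 15 called, 8 higher and 7 lower, again near the 73.6% of all genes called. ADAMTS5, an aggrecan-cutting protease that TIMP3 inhibits, rose from 12.3 ± 2.04 to 46.2 ± 5.00 CPM (log2 fold change 1.89, adjusted p = 3.35e-12) and in RPF by 1.49 ± 0.31 (adjusted p = 9.81e-05). The ADAMTS-like genes ADAMTSL4 (1.70, adjusted p = 1.71e-12) and ADAMTSL5 (1.198, adjusted p = 4.12e-09) rose in mRNA, and ADAMTSL1 fell by 1.21 (adjusted p = 1.59e-06). Of 8 tested in RPF, 5 were called, all higher, where 54.3% of all genes were called and 27.7% called higher, with a median log2 fold change of 0.67 over the 8.

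Among 10 other ADAMs, 7 were tested in mRNA and all were called, 5 higher and 2 lower, beside 36.6% of all genes called higher and 37.0% lower. ADAM19 rose from 176 ± 9.33 to 981 ± 60.3 CPM (log2 fold change 2.48, adjusted p = 7.83e-17), and in RPF by 2.81 ± 0.18 (adjusted p = 2.09e-19). ADAM15 and ADAM23 rose by 0.54 and 0.36 in mRNA (adjusted p = 1.41e-06 and 0.00182). ADAM17, the sheddase of TNF and a target of TIMP3, fell by 0.31 in mRNA (adjusted p = 0.00296) and by 0.67 ± 0.26 in RPF (adjusted p = 0.0307).

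The genes that activate proenzymes or partner with them at the surface mostly rose. Of 10, 9 were tested in mRNA and all were called higher, with a median log2 fold change of 0.87, and of 8 tested in RPF, 7 were called higher. Over all genes 36.6% were called higher in mRNA and 27.7% in RPF. PLAT, the tissue plasminogen activator, rose from 199 ± 8.95 to 1117 ± 49.2 CPM (2.48, adjusted p = 4.66e-17), and in RPF by 2.63 ± 0.19 (adjusted p = 3.50e-17). FURIN, the proprotein convertase that activates MMP14, rose by 0.87 in mRNA (adjusted p = 9.94e-09) and 1.38 ± 0.27 in RPF (adjusted p = 4.14e-05). PCSK5, a further convertase, rose by 1.97 in mRNA (adjusted p = 1.94e-10). PCSK7 rose in mRNA (1.23, adjusted p = 1.24e-12), had an RPF change of 0.19 ± 0.36 (adjusted p = 0.687) and was the gene of the list called in TE, where it fell by 1.08 ± 0.36 (adjusted p = 0.0853).

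AP-1 and ETS factors, which bind the promoters of many MMP genes, changed in both directions. Of 12, 11 were tested in mRNA and 7 called, 5 higher and 2 lower, where 73.6% of all genes were called. FOSL2 fell by 0.67 (adjusted p = 7.05e-08) and ETS1 by 0.47 (adjusted p = 4.09e-06), while ETV5 rose by 0.51 (adjusted p = 5.99e-06) and ETS2 by 0.46 (adjusted p = 3.74e-05). In RPF 3 of 8 were called (54.3% of all genes), and in TE 1 of 8 (9.41% of all genes), ETS2 (0.54 ± 0.19, adjusted p = 0.106). RefSeq promoter windows (GRCh38.p14, 250 bases before to 50 after the start) were given for 5 of the 10 genes, namely MMP10, MMP14, TIMP1, TIMP3 and ADAM12. The AP-1 motif TGAGTCA, or TGACTCA on the other strand, was in 0 of these 5 windows and in 4.95% of 35116 windows, which says only that these letters are not in these windows.

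Of 11 substrate genes, 10 were tested in mRNA and 8 called, 6 higher and 2 lower, near the 73.6% of all genes called. IGFBP3, which encodes a binding protein for insulin-like growth factors that ADAM12 can cut, rose from 436 ± 3.77 to 3163 ± 42.3 CPM (log2 fold change 2.86, adjusted p = 3.65e-18). COL4A1, a chain of the basement membrane collagen cut by gelatinases, rose by 0.85 in mRNA (adjusted p = 3.98e-09), had an RPF change of 0.12 ± 0.19 (adjusted p = 0.619) and fell by 0.74 ± 0.19 in TE (adjusted p = 0.0171). COL3A1, a fibrillar collagen, fell by 0.93 in mRNA (adjusted p = 1.30e-09) and by 0.80 ± 0.18 in RPF (adjusted p = 2.14e-04). HBEGF, a growth factor shed by ADAM proteases, rose by 0.60 in mRNA (adjusted p = 4.38e-05).

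The genes whose levels followed 6 of the members most closely over the 12 libraries were found by Euclidean distance of log2 CPM, centred within library type, over 7511 other genes. TIMP3 lay nearest to SLC2A1, the glucose transporter (distance 0.417), and PRSS23, a serine protease (0.530), where the median gene lay at 3.80. MMP2 lay nearest to NAT10 (0.292) and EIF3F (0.315), and MMP14 to PKM and NUCB1, both at 0.280. For TIMP1 the nearest were FAU (0.248) and RPL37A (0.312), both ribosomal protein genes. Their log2 fold changes were -0.14 and -0.37 in mRNA and 0.15 and 0.12 in RPF. Because these genes were picked for closeness over the same libraries, like signs with TIMP1 are no separate result. The RPF change of TIMP1 was not called, so its sign is not settled. ADAMTS1 lay nearest to CCN1 (0.317) and REST (0.321), and MMP1 to SCARB2 (0.329) and COX7A2L (0.375). These distances are a description over 12 libraries that share state and depth.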

How the data were processed

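RNA-seq of poly(A) RNA and Ribo-seq (RNase I footprints of 28 to 32 nucleotides, cycloheximide in the lysis) were performed on the same lysates. The published methods count Ribo-seq reads on coding sequences and RNA-seq reads on transcripts, whereas the deposited tables list, for each symbol, reads by class (CDS, both UTRs and non-coding). The submitters' processing notes name cutadapt 1.18, Bowtie 1.0.1, SAMtools 1.8 and DESeq2 1.22.2. The build, strand rule and handling of multiply placed reads are not given in the sources used here. The deposited values are expected counts (unscaled, partly fractional). The planned tests had assumed plain counts, so sums were rounded to whole numbers.

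mRNA was the sum of UTR and CDS reads in RNA-seq and RPF the CDS reads in Ribo-seq, over 16451 symbols with at least 1 CDS read. edgeR 4.0.16 (R 4.3.3) quasi-likelihood tests were run two-sided after filterByExpr, with TMM factors within library type and Benjamini-Hochberg adjustment over all genes. TE was the interaction of library type with state in all 12 libraries, with the lysate as a block. The threshold of 0.15 is the 15% false discovery rate of the study, which used anota2seq, not run here. Same-lysate deviations of mRNA and RPF correlated at -0.054 to 0.072 across genes, so the pairing rests on the protocol. CPM were scaled with TMM factors, errors are SD (n = 3) or SE, and levels per kilobase used unrounded CDS reads. All replicate pairs differed by more than counting noise (a chi-square of at least 1.31 for each degree of freedom). Alternatives were DESeq2 1.42.0, limma 3.58.1 (voom), other normalizations, filters, thresholds, blocks and read regions, and leaving out libraries. Tests were checked on simulated data. Python 3.11.15, pandas 2.3.3 and scipy 1.17.1 were used.

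The members and lists were chosen with earlier results of these data known. Named genes were all members, and from each other list at most 4 with the largest absolute mRNA fold change among genes called, without overlap of groups and with at least 10 counts in every library, plus the 2 nearest genes of each member tested in both layers and 6 neighbours on chromosome 11. The nearest genes of TIMP2 are not reported here.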

Additional observations from a re-analysis of the deposited data

How the results depend on the processing

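Fold changes of the 10 genes in mRNA were recomputed 156 times, and those of the 7 genes tested in RPF and TE 111 and 118 times, and they kept direction and side of the threshold in 143, 102 and 104 of these. The number of members called in RPF was 4, and 3 (DESeq2, without Pro 3) to 6 (filter of 1 read) over the alternatives. Among TE results, the number of members called was 0 in the main fit, 1 on library totals (TIMP2, 0.39, adjusted p = 0.126), 3 without both shallow lysates, and 0 to 2 when 1 lysate was left out. 3′ UTR shares without overlap were found for 0 to 4 members when 1 lysate was left out, counts for which no share of all genes was computed. Directions turned for genes near 0. The mRNA change of ADAM12 was -0.060 on library totals and -0.034 to 0.096 without 1 library. The RPF change of TIMP1 was -0.043 on library totals, -0.044 under the filter of 10 counts and -0.044 to 0.16 without 1 library, and that of ADAMTS1 -0.16 to 0.080 without 1 library. The TE change of MMP1 was -0.024 with RLE factors, -0.028 on library totals, -0.0059 under the filter of 1 read, -0.075 without both shallow lysates and -0.12 to 0.11 without 1 lysate. The cause was not tested.

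Replicate numbers did not pair Pro with Sen samples (correlations of deviations -0.20 to 0.23 in mRNA and 0.013 to 0.042 in RPF). With the replicate block, RPF calls over all genes went from 4106 to 2400 and the RPF change of ADAMTS1 became 0.035, and no member's call changed in mRNA or RPF. Without the lysate block (no replicate block) in TE, 1369 genes were called in place of 707, 1 member was called (TIMP2, 0.47, adjusted p = 0.0724) and MMP1 was at -0.036.

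Over all genes, RPF calls were 1157 in DESeq2, 609 under the filter of 10 counts and 2705 without Sen 1. TE calls were 26 in DESeq2, 43 in voom, 433 under a filter of 1 read, 242 under one of 10 counts in every library, 220 at an adjusted p under 0.05, and 125 to 1140 without 1 lysate, the lowest without Pro 2 and the highest without Pro 1. On library totals the median log2 fold change of all genes was -0.11 in mRNA and -0.14 in RPF, and the share of higher calls fell to 40.4% and 39.1%, from 49.7% and 51.0%. The share of higher TE calls was 53.0%, and 19.2% in DESeq2, 34.9% in voom, 32.2% under the filter of 10 counts and 39.6% without Pro 1. ADAMTS1 mRNA was not called at an adjusted p under 0.05 or on CDS reads alone (-0.15, adjusted p = 0.205). MMP3, MMP10 and ADAM12 had few CDS reads in Ribo-seq, and Pro 1 and Sen 2 were the shallowest libraries for every member. CDS reads were also only 34.4% of assigned Ribo-seq reads in Pro 1 and 15.0% in Sen 2, against 54.7% to 88.8% in the others. Depth therefore cannot be told apart from other traits of Pro 1 and Sen 2.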
